A study of Mus musculus with 22 samples.

Results

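The genes described here are 38 markers of the dividing cell, 16 that act in S phase and 22 that act in mitosis. They were chosen by name and found by an exact match of the gene symbol, which gene identifiers carried for 34582 of the 34866 rows of the culture tables. All 38 were present once in each of the count tables, among those rows and among 23911 genes in the cartilage table. The study asked what loss of the DNA methyltransferase Dnmt1 does to gene expression in growing mouse cartilage. It measured 22 RNA libraries in 6 groups: 3 control and 3 mutant chondrocyte cultures at day 0, 4 control and 4 mutant cultures at day 3, and 4 control and 4 mutant cartilage samples.

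Control animals were labelled Dnmt1 flox, with no Cre named and no zygosity stated. Mutant animals (cKO) were labelled Prrx1-Cre;Dnmt1 flox/flox for the cultures and simply cKO for the cartilage samples. Prrx1-Cre acts in the early limb mesenchyme, so cartilage and the other connective tissues of the limb carry the deletion. The cultures were primary chondrocytes from knee articular cartilage of mice at postnatal days 3 to 5, kept in serum. Day 3 cultures of both genotypes had received BMP2, a growth factor that drives chondrocyte differentiation, for 3 days at a dose given as 100 ng/µl. The day 0 samples carry no treatment label. Cartilage was taken at postnatal day 5 and digested with collagenase. In each cartilage group replicates 1 and 2 were male and replicates 3 and 4 female.

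A cell that is about to divide copies its DNA in S phase and separates the copies in mitosis. Genes of S phase are switched on by E2F transcription factors as the cell leaves G1. Most mitotic genes are held back in G0 and G1 by the DREAM complex and switched on later, in G2, by MuvB with B-Myb and FOXM1. Dnmt1 itself is recruited to the replication fork and copies DNA methylation onto the new strand. In the growth plate, the dividing cells are the columnar chondrocytes, which leave the cycle when they become hypertrophic. The RNA of these genes is therefore read as a measure of how many cells in a sample are cycling. In bulk samples, fewer cycling cells and less RNA per cycling cell cannot be told apart.

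Libraries held 41749327 to 51741478 counts in the day 0 table, 14434197 to 18918714 in the day 3 table and 1100198 to 1888896 in the cartilage table. Levels are given in CPM, which puts every library on a total of 1000000 counts. A count of 3, the floor for counting error alone, corresponded to at most 0.0719 CPM at day 0, 0.208 CPM at day 3 and 2.73 CPM in cartilage. Dnmt1 was lower in every cKO library, at 25.7 to 31.3 CPM against 147 to 159 CPM at day 0, 11.6 to 36.4 against 64.9 to 83.5 at day 3, and 11.8 to 14.3 against 34.5 to 48.6 in cartilage. One library stood apart: cKO day 3 replicate 4 differed from the other 3 cKO day 3 libraries by a chi-square of 124 to 138 per degree of freedom over genes, against 7.42 to 10.9 among those 3. It had the lowest level of its group in all 22 mitotic genes and in 14 of 16 S phase genes, so day 3 results are given with and without it. Control day 3 replicate 1 had the highest level of its group in all 38 genes. All 4 control cartilage libraries carried one library pool name and all 4 cKO cartilage libraries another, so pool and genotype cannot be told apart there.

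Markers of other cell types moved with genotype. Over all tested genes, 64.5% were called (edgeR adjusted p under 0.05) at day 0, 48.1% at day 3 and 6.19% in cartilage. At day 0 all 9 chondrocyte markers were lower in cKO cultures (summed level 47388 to 57967 CPM against 133258 to 141065), and 4 of 5 tested muscle markers were higher (summed level 40.8 to 52.4 CPM against 6.49 to 7.19). At day 3 the summed chondrocyte markers stood at 1208 to 17267 CPM in cKO and 91964 to 113948 CPM in control cultures, and 8 of 9 were called lower. All 6 tested muscle markers were then higher, with a sum of 133 to 1597 CPM against 1.39 to 1.92. Myod1, a defining muscle gene, was at 0 in the 3 control day 0 libraries and at 7.92 to 13.3 CPM in the cKO day 0 libraries. Myog and Myf5 had at most 1 count in any day 0 library, and Pax7 was at 0 in all 6 day 0 libraries. In cartilage 4 of 4 tested erythroid markers (13.4 to 389 CPM against 167 to 917) and 3 of 3 tested osteoclast markers (58.8 to 118 CPM against 126 to 456) were lower in cKO. The summed chondrocyte markers of cartilage were 29517 to 59645 CPM in cKO and 64436 to 96632 CPM in control samples, with 2 of 9 called lower. The single tested muscle marker of cartilage was higher in cKO (sum of the list 13.4 to 43.7 CPM against 5.66 to 8.26). In cartilage no leukocyte, endothelial, fibroblast and tendon, or osteoblast marker was called by edgeR (0 of 1, 1 of 5, 2 of 8 and 2 of 3 tested were at an unadjusted p under 0.05). In culture, leukocyte markers were higher in cKO for 3 of 4 tested at day 0 and 2 of 3 at day 3. Fibroblast and tendon markers were lower for 6 and higher for 2 of 8 at day 0, and higher for 3 and lower for 1 of 7 at day 3. Osteoblast markers were higher for 1 and lower for 1 of 4 at day 0, and higher for 5 of 6 at day 3. Endothelial markers were higher for 2 and lower for 1 of 3 at day 0, and lower for 1 of 2 at day 3. Osteoclast markers were higher for 1 and lower for 1 of 4 at day 0, and higher for 1 of 2 at day 3. The leukocyte, endothelial and osteoclast genes called higher at day 0 were low, at no more than 2.60 CPM in any library. The part of all these marker lists in the results below was not tested.

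Promoters of the 2 classes are known for different motifs, and 4 of them are printed to show the matches found. The sequences are from RefSeq (GRCm38.p6) and show the 200 bases just before RefSeq's annotated start, which can differ from the GENCODE gene positions given further on, 5′ to 3′ on the gene's own strand. Capitals mark matches, on either strand, to the CHR motif TTTGAA, the CCAAT box CCAAT, or the E2F motifs TTTCCCGC, TTTCGCGC, TTTGCCGC and TTTGGCGC. Matches of 1 motif may overlap. Mcm6 and Rrm2 are 2 S phase genes that changed in opposite directions at day 3, and Cdk1 and Ccnb2 are mitotic genes.
Mcm6, chr1:128359706-128359905, minus strand: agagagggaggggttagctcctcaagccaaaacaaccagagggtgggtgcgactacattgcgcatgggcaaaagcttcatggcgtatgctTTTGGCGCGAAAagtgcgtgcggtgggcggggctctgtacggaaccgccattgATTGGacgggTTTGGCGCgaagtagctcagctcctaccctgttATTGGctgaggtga
Rrm2, chr12:24708054-24708253, plus strand: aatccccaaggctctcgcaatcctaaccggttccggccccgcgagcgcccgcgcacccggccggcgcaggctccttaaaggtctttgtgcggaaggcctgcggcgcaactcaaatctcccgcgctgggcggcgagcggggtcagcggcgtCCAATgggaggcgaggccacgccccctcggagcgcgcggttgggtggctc
Cdk1, chr10:69352913-69353112, minus strand: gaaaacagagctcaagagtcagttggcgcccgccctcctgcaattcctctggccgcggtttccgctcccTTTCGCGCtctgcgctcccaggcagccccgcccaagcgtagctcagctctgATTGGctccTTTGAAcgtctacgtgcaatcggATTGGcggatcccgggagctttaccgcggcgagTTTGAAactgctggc
Ccnb2, chr9:70421555-70421754, minus strand: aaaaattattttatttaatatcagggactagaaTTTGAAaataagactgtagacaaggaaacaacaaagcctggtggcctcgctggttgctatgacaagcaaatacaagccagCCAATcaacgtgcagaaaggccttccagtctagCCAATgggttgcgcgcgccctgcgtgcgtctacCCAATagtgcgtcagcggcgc

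Promoter windows from 250 bases before to 50 after the start were available for 30 of the 38 genes. The CHR motif lay in 13 of 17 mitotic windows (76.5%), in 1 of 14 S phase windows (7.14%) and in 17.9% of the 32851 windows of all genes. The E2F motifs showed the opposite pattern, with 6 of 14 S phase windows (42.9%), 1 of 17 mitotic windows (5.88%) and 2.26% of all windows. The CCAAT box was found in 16 of 17 mitotic windows (94.1%), 9 of 14 S phase windows (64.3%) and 37.4% of all windows. Cdk1 was the mitotic gene with an E2F match, and Mcm2 the S phase gene with a CHR match. Rrm2, Tyms, E2f1, Ccne1, Pcna, Rrm1 and Mcm2 held no match to these 4 E2F spellings in the window. Mcm7 had windows with and without an E2F match, so the 14 S phase windows covered 13 genes. These are matches of letters and do not show that a factor binds.

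In control cultures at day 0, levels could be compared between genes per kilobase of annotated exon. Pcna, the sliding clamp of DNA polymerase, was the highest at 54.6 ± 0.395 CPM per kb (SD, n = 3). Cdc20, an activator of the anaphase-promoting complex, and Rrm2, a subunit of ribonucleotide reductase, followed with overlapping spreads, Rrm2 at 41.5 ± 1.04 CPM per kb. The licensing factor Cdc6 was the lowest at 2.45 ± 0.0815 CPM per kb. By day 3 the order in cKO cultures had Rrm2 first, at 55.2 ± 20.6 CPM per kb (n = 4), ahead of Pcna at 34.1 ± 6.04, while in control cultures Pcna (34.8 ± 5.91) lay ahead of Mcm6 (17.2 ± 3.34), Mcm4 (17.0 ± 2.58) and Rrm2 (15.2 ± 5.83). These levels use all annotated exons of a gene, whatever isoform was expressed.

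At day 0, both classes were higher in cKO cultures. All 22 mitotic genes and 14 of 16 S phase genes rose, against a background of 64.5% of 15530 tested genes called in either direction and 33.0% called higher (31.6% lower). Called means an edgeR adjusted p under 0.05. The increases were modest, with a median log2 fold change of 0.51 for mitotic genes (0.21 to 0.91) and 0.41 for S phase genes, beside 0.0096 over all tested genes. In all 36 called members the 3 cKO libraries lay above the 3 control libraries, in a comparison where 70.3% of all tested genes had groups that did not overlap.

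Licensing of replication origins loads the MCM2 to MCM7 helicase with the help of Cdc6 and Cdt1, and geminin (Gmnn) holds Cdt1 back. Cdc6 (chr11:98907801-98923940, plus strand) stood at 13.3, 12.4 and 12.8 CPM in control libraries 1 to 3 and at 23.9, 21.0 and 23.6 CPM in cKO libraries. Its log2 fold change was 0.83 ± 0.06 (SE, edgeR adjusted p = 4.6e-06). Gmnn was at 13.7, 11.9 and 12.1 CPM in control and 18.9, 20.002 and 20.018 CPM in cKO cultures (0.65 ± 0.07, adjusted p = 2.7e-05). Both genes were higher in each cKO library than in any control library. Cdt1 rose by a log2 fold change of 0.62. Of the helicase subunits, Mcm3, Mcm4, Mcm5, Mcm6 and Mcm7 rose by 0.18 (Mcm6) to 0.41 (Mcm5). Mcm2 did not pass the test (-0.03 ± 0.06, adjusted p = 0.689), with 129, 111 and 108 CPM in control and 115, 114 and 112 CPM in cKO cultures, so that the cKO libraries fell within the control range.

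Ribonucleotide reductase, made of Rrm1 and Rrm2 subunits, supplies the deoxynucleotides for DNA synthesis. Rrm2 (chr12:24708241-24714146, plus strand) was at 118, 113 and 113 CPM in control and 184, 158 and 211 CPM in cKO cultures (log2 fold change 0.68 ± 0.09, edgeR adjusted p = 0.00011). Rrm1 was at 106, 97.4 and 96.9 CPM in control and 158, 147 and 166 CPM in cKO cultures (0.65 ± 0.05, adjusted p = 4.9e-06). Neither gene's groups overlapped, and the spread of Rrm2 was wider in cKO (SD 26.4) than in control (SD 2.89). Pcna stood at 132, 130.2 and 131 CPM in control and 175, 164 and 184 CPM in cKO cultures (0.41 ± 0.04, adjusted p = 2.7e-05). Tyms, which makes thymidylate, rose by 0.49. The cyclins that drive S phase entry rose by 0.27 (Ccne1) and 0.52 (Ccne2). E2f1, the transcription factor, was the other S phase gene not called, with a log2 fold change of -0.12 ± 0.05 (adjusted p = 0.0809).

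Among mitotic genes the largest increase was in Foxm1 (chr6:128362967-128376146, plus strand), the transcription factor of the G2 and M programme. It was at 41.5, 41.1 and 39.6 CPM in control and 75.6, 68.2 and 85.5 CPM in cKO cultures (log2 fold change 0.91 ± 0.07, edgeR adjusted p = 6.0e-06). The lowest cKO library exceeded the highest control library by more than the whole control range. Cenpf, a kinetochore protein, was at 75.0, 69.3 and 69.1 CPM in control and 116, 113 and 125 CPM in cKO (0.73 ± 0.05). Kif20a, a kinesin of cytokinesis, was at 74.7, 71.5 and 69.3 against 116, 112 and 123 CPM (0.71 ± 0.04). Bub1b, a spindle checkpoint kinase, was at 51.1, 46.8 and 47.2 against 76.6, 72.7 and 79.5 CPM (0.66 ± 0.05). Kif23, of the central spindle, was at 44.5, 42.3 and 42.5 against 58.6, 61.2 and 72.4 CPM (0.57 ± 0.07), and the kinase Aurka at 35.5, 33.3 and 35.0 against 48.9, 51.0 and 54.3 CPM (0.57 ± 0.05). In these 6 genes no cKO library fell into the control range.

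The mitotic engine is Cdk1 with its cyclins. Cdk1 (chr10:69335146-69352938, minus strand) was at 66.6, 61.1 and 62.5 CPM in control and 82.3, 78.8 and 89.1 CPM in cKO cultures (0.40 ± 0.05, adjusted p = 0.00013). Ccnb1 (cyclin B1) was at 69.1, 65.0 and 62.9 against 95.6, 92.7 and 101 CPM (0.55 ± 0.05), and Ccnb2 and Ccna2 rose by 0.52 and 0.45. The marker of cycling cells Mki67 (chr7:135689784-135716361, minus strand) was at 269.6, 253 and 251 CPM in control and 365, 362 and 394 CPM in cKO cultures (0.54 ± 0.04, adjusted p = 6.8e-06). Top2a, which untangles chromosomes, was at 286, 261 and 253 against 303, 309 and 326 CPM (0.23 ± 0.05, adjusted p = 0.0028). Top2a rose less than Mki67, and its groups came closer. The kinases Plk1 and Aurkb rose by 0.56 and 0.34, and Birc5, the survivin partner of Aurkb, by 0.53. Kif11 (0.36) and Tpx2 (0.29) of the spindle, Cdc20 (0.50) and Ube2c (0.47) of the anaphase-promoting complex, the checkpoint kinase Bub1 (0.47), and Cenpe (0.46) and Cenpa (0.21) of the centromere made up the rest.

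Genes of the same pathways outside the 38 moved in the same direction at day 0. Over all tested genes, 33.0% were called higher and 31.6% lower in this comparison. Of 35 other DNA replication genes 30 rose and 1 fell, with a median log2 fold change of 0.45. The largest increases were in Dscc1 (0.99), Orc1 (0.95) and Uhrf1 (0.86), the last being the partner that brings Dnmt1 to newly copied DNA. Of 44 other mitosis genes 41 rose and 0 fell, with a median of 0.52, led by Gtse1 (1.098), Cep55 (0.86) and Ccnf (0.85).

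When all 14 culture libraries were fitted together, with 1 spread for both days and their own scaling and set of tested genes, the sizes were nearly the same (median 0.52 for mitotic and 0.41 for S phase genes). Only 1 mitotic gene, Foxm1, and 4 S phase genes, Pcna, Cdc6, Cdt1 and Rrm1, were then called, out of 6260 genes in all. Why calls were lost was not tested.

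**Figure D1:**
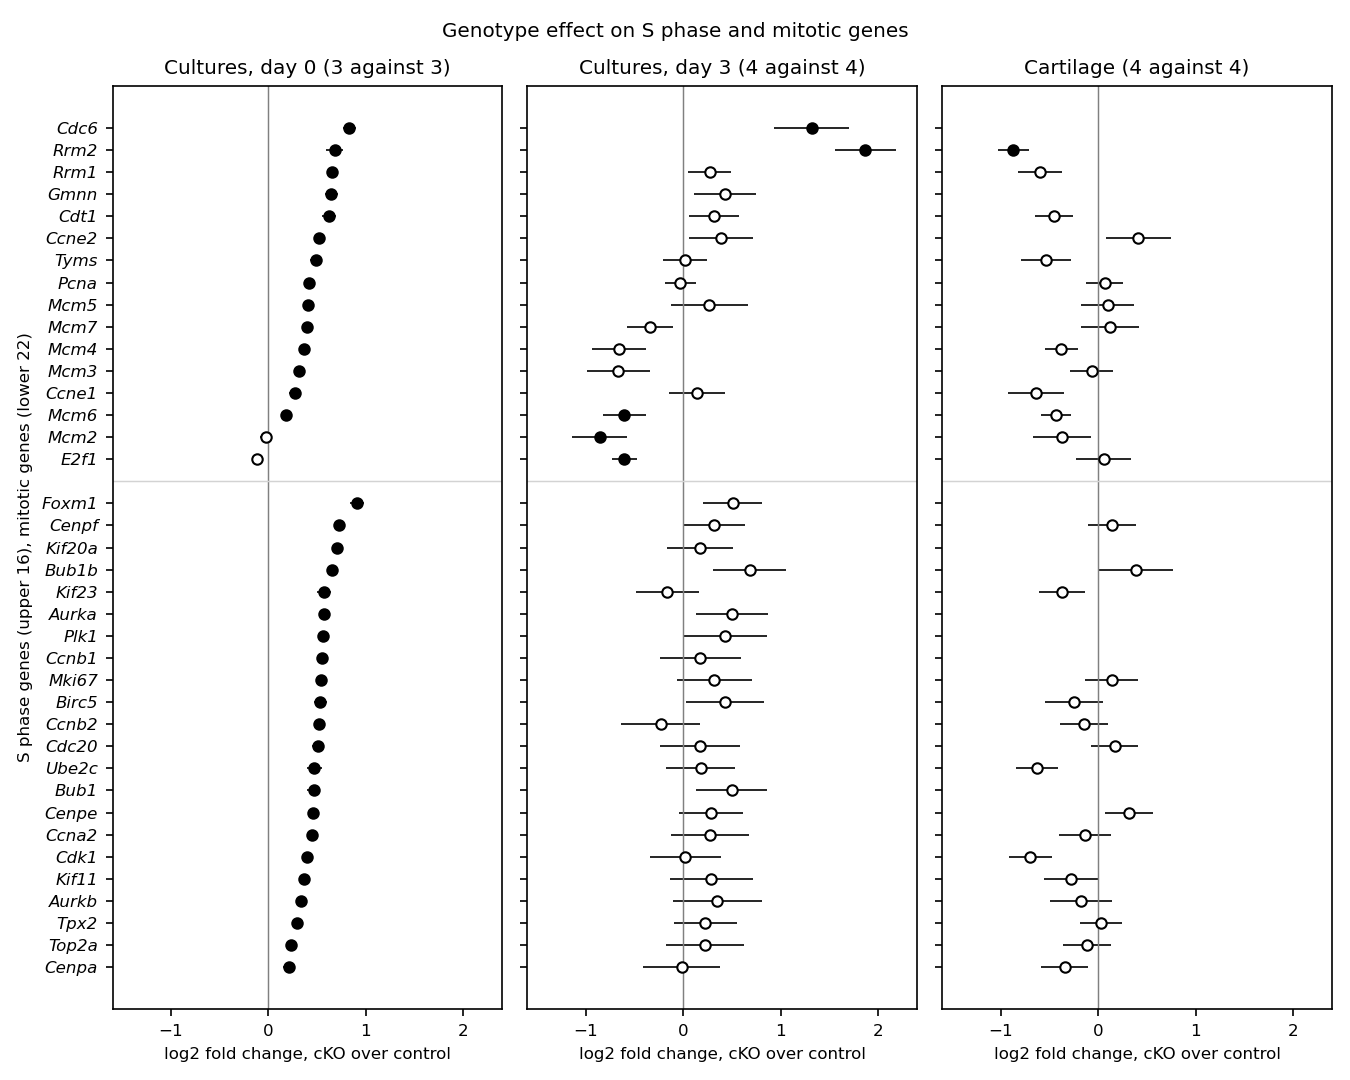
Log2 fold change of cKO over control (x axis) for each gene (y axis) in the 3 genotype comparisons; points are edgeR estimates, bars are 1 SE, and filled points were called at an adjusted p under 0.05. At day 0 the 22 mitotic and 14 S phase genes lie to the right of 0; at day 3 only Cdc6, Rrm2, Mcm6, Mcm2 and E2f1 are filled, and in cartilage only Rrm2, to the left.

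At day 3, after BMP2, single S phase genes were called in both directions and no mitotic gene was. None of 22 mitotic genes was called by edgeR (0 also at an unadjusted p under 0.05, and 0 with DESeq2), although 48.1% of 13924 tested genes were called in this comparison (25.5% higher, 22.6% lower). The median log2 fold change of the mitotic genes was 0.28, beside 0.011 over all tested genes. Of 16 S phase genes 5 were called: Rrm2 and Cdc6 were higher, and Mcm2, Mcm6 and E2f1 were lower. The groups did not overlap in Rrm2, Mcm2, Mcm4, Mcm6 and E2f1, in a comparison where that held for 47.9% of all tested genes.

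Rrm2 showed the largest difference. It was at 66.2, 33.2, 33.4 and 35.2 CPM in control libraries 1 to 4 and at 102, 145, 131 and 235 CPM in cKO libraries 1 to 4 (log2 fold change 1.87 ± 0.32, SE, edgeR adjusted p = 0.0016). Every cKO library lay above every control library, and the highest was replicate 4. Without that library the log2 fold change was 1.58 and the call held. Rrm1, the other reductase subunit, did not pass the test (0.27 ± 0.22). A processed pseudogene, Gm48455, shares 95.5% identity with Rrm2 over 419 bases, so some Rrm2 reads could be split by the counting.

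Cdc6 was at 3.72, 2.34, 2.42 and 2.43 CPM in control and 7.28, 8.73, 8.68 and 2.45 CPM in cKO cultures (1.32 ± 0.38, adjusted p = 0.0204). The cKO libraries 1 to 3 lay above all controls, and replicate 4 lay within the control range. Without replicate 4 the log2 fold change was 1.59. The Cdc6 call was lost in 5 of 8 fits that each left out 1 library, without control replicate 2, 3 or 4 or cKO replicate 2 or 3.

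The helicase subunit Mcm2 (chr6:88883474-88898780, minus strand) was at 78.6, 69.6, 51.986 and 58.8 CPM in control and 38.4, 41.9, 45.4 and 17.0 CPM in cKO cultures (-0.86 ± 0.28, adjusted p = 0.0326). Mcm6 (chr1:128331590-128359664, minus strand) was at 102, 76.1, 65.4 and 76.8 against 51.6, 63.8, 62.5 and 32.8 CPM (-0.60 ± 0.22, adjusted p = 0.0470). Neither gene's groups overlapped, and replicate 4 was the lowest in both. Without it the log2 fold changes were -0.63 and -0.44, and both calls held. Each call was lost in 4 of 8 fits with 1 library left out (control replicate 1, 2 or 4, or cKO replicate 1). The other subunits of the same ring were not called: Mcm3 at -0.67, Mcm4 at -0.66, Mcm7 at -0.35 and Mcm5 at 0.27. Without replicate 4, Mcm4 was also called lower (-0.44) and Mcm5 called higher (0.55).

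E2f1 (chr2:154559407-154569892, minus strand) was at 34.8, 33.7, 33.6 and 32.6 CPM in control and 18.6, 23.6, 18.7 and 27.7 CPM in cKO cultures (-0.61 ± 0.13, adjusted p = 0.0055). The controls were tight and all 4 cKO libraries lay below them. Unlike most of the 38 genes, E2f1 was highest in replicate 4 among the cKO libraries, and without it the log2 fold change was -0.73. The E2f1 and Rrm2 calls held in all 8 fits with 1 library left out.

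For the mitotic genes, the values of single libraries show how the groups came to overlap. Mki67 was at 80.5, 49.8, 60.3 and 41.1 CPM in control and 70.7, 95.9, 96.2 and 25.7 CPM in cKO cultures (0.32 ± 0.38, adjusted p = 0.525). Top2a was at 103, 49.0, 58.2 and 52.7 against 75.4, 99.7, 103 and 27.6 CPM. In both genes cKO replicates 2 and 3 were near or above the highest control, replicate 1 of the controls stood above the other 3, and cKO replicate 4 stood below all controls. Cdk1 was at 32.5, 16.049, 21.2 and 19.1 against 24.0, 28.4, 28.7 and 8.70 CPM, and Ccnb1 at 28.4, 14.2, 14.8 and 13.0 against 17.8, 26.6, 27.6 and 7.29 CPM. Pcna was at 104, 75.3, 72.7 and 82.1 against 79.9, 90.4, 94.7 and 62.1 CPM. Summed over the 22 mitotic genes, the control libraries stood at 657, 349, 409 and 345 CPM and the cKO libraries at 500.4, 687, 697 and 209.9 CPM.

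Leaving out cKO replicate 4 changed the mitotic calls at day 3. There were then 6 mitotic genes called, all higher in cKO: Bub1b (0.94), Bub1 (0.72), Birc5 (0.71), Foxm1 (0.70), Mki67 (0.59) and Cenpf (0.56). Over all genes, 7808 of 14159 tested were called in that fit, 4074 higher and 3734 lower. The median of the mitotic genes was then 0.54. In S phase 9 genes were called: the 5 above, and Mcm4, Mcm5, Rrm1 (0.43) and Gmnn (0.65). Leaving out control replicate 1 added Aurka as the single mitotic call. Replicate 4 also had the lowest summed chondrocyte markers (1208 CPM) and the lowest summed muscle markers (133 CPM) of the cKO day 3 libraries, and the lowest Dnmt1, at 11.6 CPM against 23.0 to 36.4 CPM in the other 3. It had the highest summed osteoclast markers (381 CPM against 99.8 to 117), leukocyte markers (20.3 against 8.91 to 10.6) and osteoblast markers (9248 against 7030 to 7631) of that group. Ctsk alone made up 372 CPM of its osteoclast sum. Col1a1, which is also on the fibroblast and tendon list, made up 9086 CPM of its osteoblast sum. The part of these differences in the cell cycle values of replicate 4 was not tested.

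**Figure D2:**
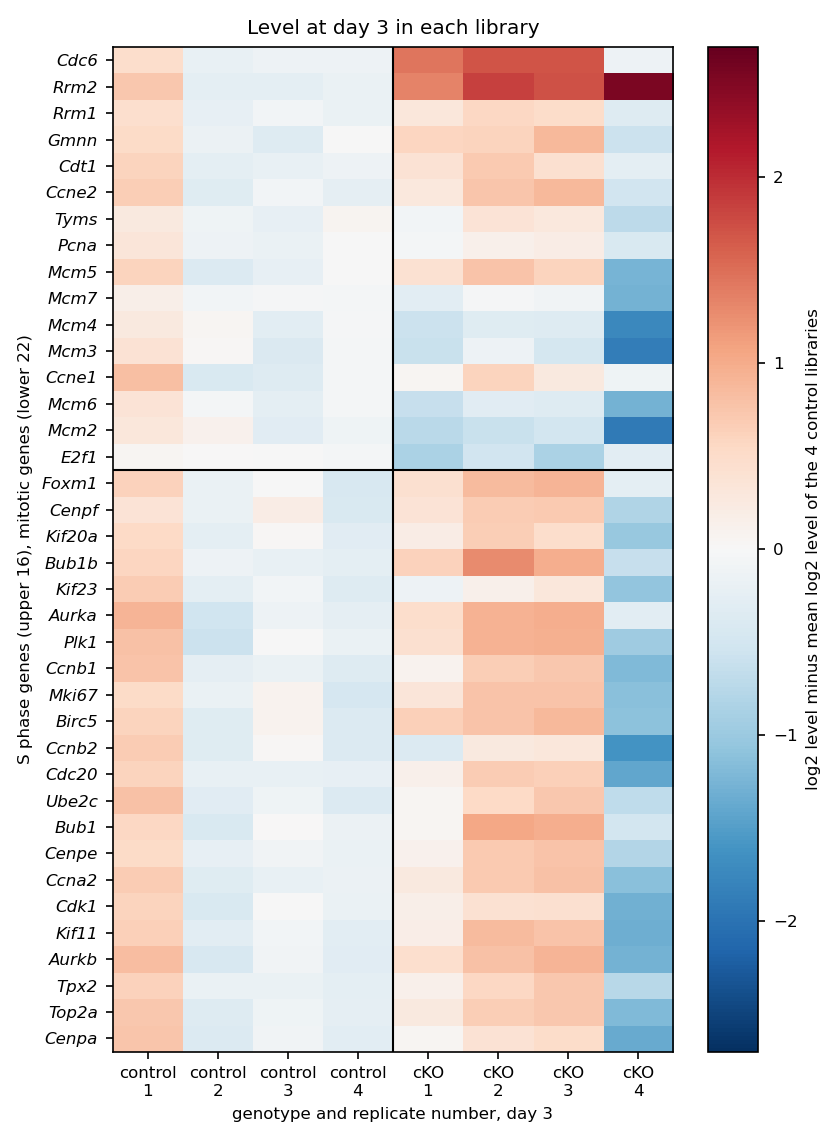
Level of each gene (y axis) in each day 3 library (x axis), as log2 level minus the mean log2 level of the 4 control libraries. Control replicate 1 is above the other controls in all 38 genes; cKO replicate 4 is the lowest cKO library in all 22 mitotic genes while its Rrm2, at 235 CPM, is the highest value of that row.

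Other genes of the pathways were also little changed at day 3, in a comparison where 48.1% of all tested genes were called. Among 35 other DNA replication genes 1 rose, Rpa1 (0.60), and 1 fell, Rpa3 (-0.76), both subunits of the protein that coats single-stranded DNA, with a median of -0.06. Among 44 other mitosis genes 2 rose and 0 fell: Ncapg, a condensin subunit (1.23), and Espl1, the protease that cuts cohesin (1.14). Their median was 0.29.

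In cartilage, 14 S phase and 16 mitotic genes were abundant enough to be tested. Cdc6, Gmnn, Ccnb1, Plk1, Aurka, Bub1, Kif20a and Foxm1 were not, with at most 21 counts in any library. One gene was called, Rrm2, lower in cKO, against a background of 6.19% of 8793 tested genes (3.15% higher, 3.04% lower). None of the 16 mitotic genes was called by edgeR (2 had an unadjusted p under 0.05, and DESeq2 called 0). The median log2 fold change was -0.38 for S phase and -0.14 for mitotic genes, beside 0.0084 over all tested genes. No label says that these replicates are separate animals, so the p-values measure the spread between these samples.

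Rrm2 was at 49.5, 43.5, 56.9 and 61.8 CPM in control and 26.029, 20.1, 33.0 and 37.0 CPM in cKO cartilage (log2 fold change -0.87 ± 0.16, SE, n = 4 and 4, edgeR adjusted p = 0.0030). Every cKO sample lay below every control sample, in males and in females. The call held in all 8 fits with 1 library left out. The direction was opposite to both culture comparisons, where Rrm2 was higher in every cKO library. That contrast was not tested. Cultures and cartilage samples also differed in library type, and in cartilage pool and genotype cannot be told apart.

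The groups also did not overlap in 4 other members, all lower in cKO and none called, in a comparison where 13.5% of all tested genes had such groups. Mcm6 was at 66.0, 50.3, 45.9 and 50.5 CPM in control and 39.5, 42.9, 40.1 and 35.3 CPM in cKO cartilage (-0.43 ± 0.15, adjusted p = 0.108). Mcm4 was at 40.5, 40.1, 40.4 and 37.6 against 29.4, 28.9, 37.5 and 25.8 CPM (-0.38 ± 0.17), and Cdt1 at 28.5, 31.6, 28.4 and 32.4 against 15.954, 24.5, 23.2 and 25.0 CPM (-0.45 ± 0.19). Ube2c, an enzyme of the anaphase-promoting complex, was at 26.3, 29.0, 22.9 and 30.9 against 12.6, 18.4, 17.8 and 22.4 CPM (-0.63 ± 0.21, adjusted p = 0.0961). An exon of Ube2c overlaps one of Tnnc2, a troponin gene on the other strand. The gap between groups was narrow in Mcm4, with 37.5 CPM in the highest cKO and 37.6 CPM in the lowest control sample.

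Cdk1 came closest to the threshold among mitotic genes. It was at 36.8, 40.1, 46.8 and 36.6 CPM in control and 23.5, 18.4, 17.8 and 37.9 CPM in cKO cartilage (-0.70 ± 0.22, adjusted p = 0.0732). The first 3 cKO samples lay below all controls and replicate 4 lay among them; without replicate 4 Cdk1 was called lower, at -1.0019. Mki67 was at 119, 102, 101 and 60.8 CPM in control and 106, 45.5, 126 and 147 CPM in cKO cartilage (0.14 ± 0.27). Top2a was at 151, 151, 105 and 112 against 136, 53.4, 136 and 155 CPM (-0.12 ± 0.24). Cenpf was at 81.8, 53.8, 53.2 and 51.0 against 65.5, 32.4, 85.6 and 84.4 CPM. In these 3 genes cKO replicate 2, a male, was the lowest of all 8 samples and the other cKO samples overlapped the controls. Summed over the 22 mitotic genes, cKO replicate 2 stood at 323 CPM, the other cKO samples at 645 to 826 CPM and the controls at 622 to 687 CPM. Pcna was at 51.0, 43.5, 39.4 and 50.5 against 49.5, 49.0, 33.0 and 62.9 CPM, and Mcm2 at 20.3, 26.5, 8.25 and 25.7 against 19.3, 12.2, 16.1 and 16.4 CPM, both with overlapping groups.

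The summed S phase genes were 349 to 446 CPM in control and 291 to 371 CPM in cKO cartilage. The erythroid markers, from another dividing lineage, were lower in cKO too, as were the osteoclast markers (values above). The order of samples differed: cKO replicate 1 had the lowest erythroid sum while cKO replicate 2 had the lowest mitotic sum. Their part in the cell cycle values was not tested.

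In a second deposited table of the same libraries, which held estimated counts, Rrm2 was again called lower (-0.86). Mcm4 (-0.61) and Cdk1 (-0.80) were called lower as well. Over all genes, 733 of 10872 tested were called in that fit, 387 higher and 346 lower. The median log2 fold change of the 15 S phase genes tested there was -0.13, against -0.38 in the whole-number counts. The Ube2c groups overlapped there, at 40.4 to 49.2 CPM in control and 21.2 to 47.0 CPM in cKO cartilage (-0.55, not called). Kif20a, at 0 to 1.78 CPM in the whole-number table, was at 5.64 to 31.7 CPM in the estimated counts. Its exons share 979 bases with those of Cdc23 on the other strand. Of the 38 genes, 7 overlap an exon on the other strand, 3 overlap an exon of another gene on the same strand (Mcm7 with Mir25 and Mir93, Top2a with Gm23451, Foxm1 with Tex52 and Gm44596), and 11 share at least 200 bases at 95% identity with another gene, such as Ccnb1 with 5 pseudogenes and Pcna with 1, and their levels are uncertain to that extent.

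In cartilage 6.19% of all tested genes were called by edgeR. Outside the 38, 0 of 21 tested DNA replication genes were called there (0 at an unadjusted p under 0.05). DESeq2 was not counted for this list. Of 27 tested other mitosis genes 1 was called, Ncapg, higher in cKO (1.22), as at day 3. The difference of the genotype effect between females and males was called for 1 of 8793 genes (0.0114%) and for none of the 30 tested members by edgeR (1 S phase and 4 mitotic genes had an unadjusted p under 0.05; DESeq2 was not run on this contrast). Its largest values among members were in Mki67 (1.33 ± 0.44, adjusted p = 0.875) and Cenpf (1.18 ± 0.39), with 2 samples per sex and genotype.

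**Figure D3:**
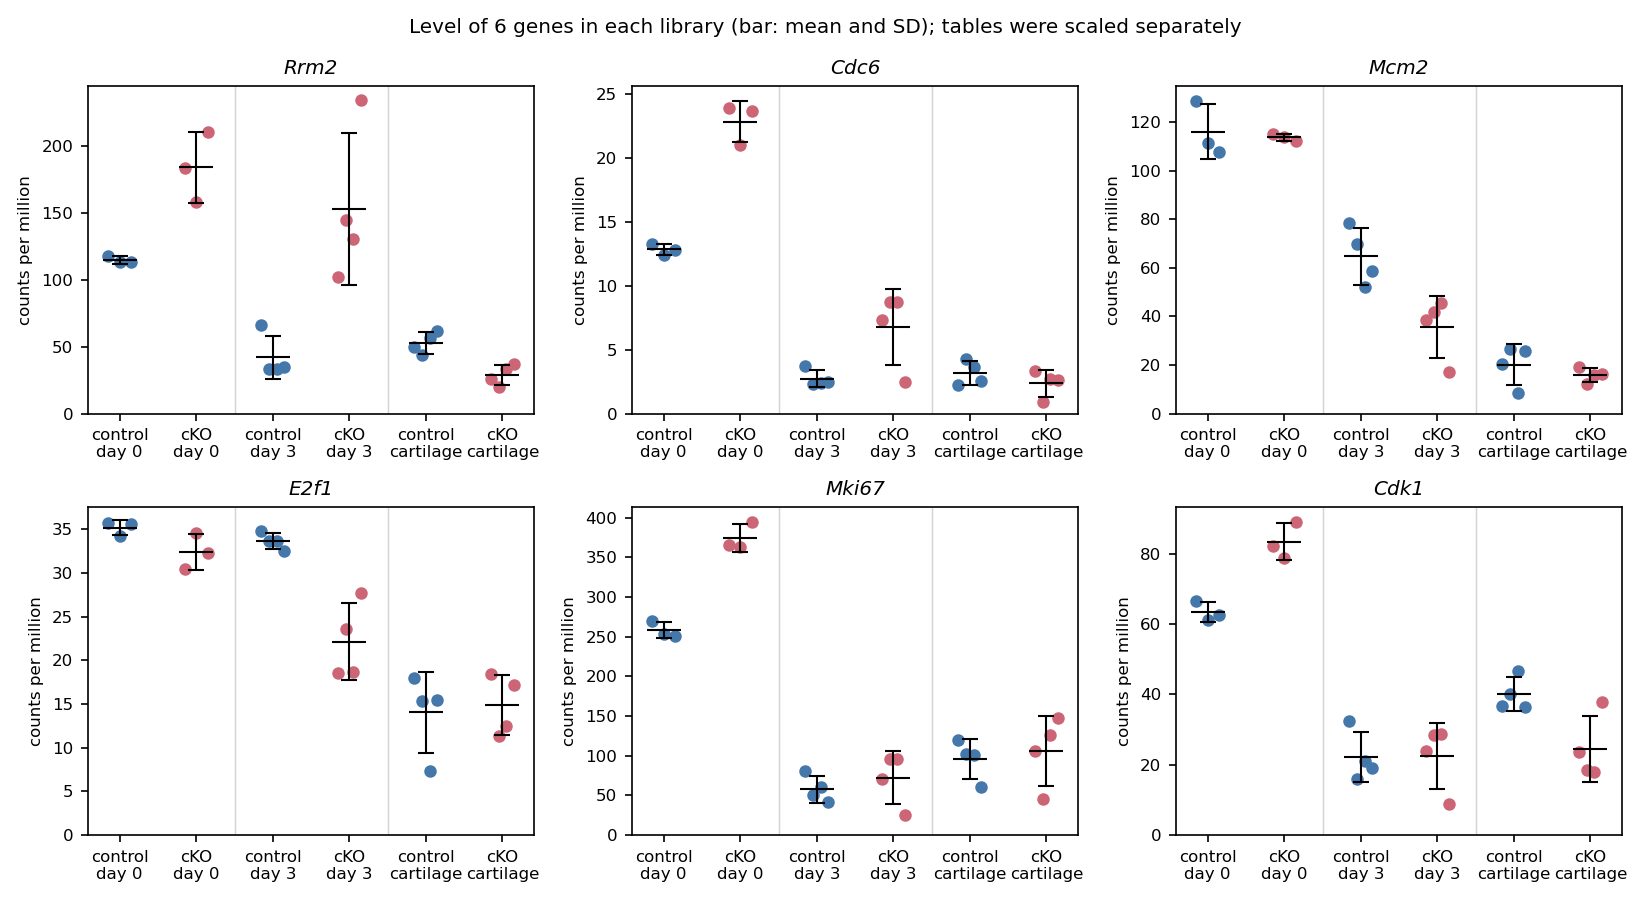
Level (y axis, CPM) of 6 genes in each library of the 6 groups (x axis), with mean and SD bars; the 3 tables were scaled separately, so heights compare genotypes within a setting. Rrm2 is higher in cKO at both days and lower in cKO cartilage; the groups of Mki67 and Cdk1 do not overlap at day 0 and overlap at day 3 and in cartilage.

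The largest differences of all were between the days. Day, BMP2 treatment and count table change together in this contrast and cannot be told apart. All 22 mitotic genes fell from day 0 to day 3 in control cultures, with a median log2 change of -2.04, and all 22 fell in cKO cultures, with a median of -2.18. The background was 56.9% of 14909 tested genes called in control cultures (28.1% higher, 28.8% lower) and 62.2% in cKO cultures (32.4% higher, 29.8% lower), with medians over all genes of 0 and 0.020. S phase genes fell less: 13 of 16 in control cultures (median -0.90) and 15 of 16 in cKO cultures (median -1.56). In the called members no day 3 library reached a day 0 library of the same genotype, where that held for 64.0% of all tested genes in control and 62.5% in cKO cultures.

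On the scale common to all 14 culture libraries, Mki67 was at 281, 264 and 262 CPM at day 0 and at 78.6, 48.5, 58.4 and 40.1 CPM at day 3 in control cultures (-2.25 ± 0.35, SE, edgeR adjusted p = 0.00012). In cKO cultures it was at 381, 378 and 412 CPM and then at 68.2, 93.8, 93.1 and 24.2 CPM (-2.48 ± 0.35, adjusted p = 4.9e-05). Every day 3 library lay far below every day 0 library of its genotype. Ube2c was at 42.7, 41.8 and 43.2 against 14.9, 6.95, 7.93 and 6.73 CPM in control (-2.23 ± 0.30) and at 55.2, 54.2 and 68.1 against 8.89, 12.5, 14.3 and 5.19 CPM in cKO cultures (-2.53 ± 0.30). Foxm1 was at 43.2, 42.8 and 41.3 against 15.2, 8.63, 9.73 and 7.25 CPM in control (-2.06 ± 0.26) and at 78.9, 71.2 and 89.4 against 13.2, 17.9, 18.4 and 7.96 CPM in cKO cultures (-2.47 ± 0.26). Ccna2 (cyclin A2) was at 99.5, 95.2 and 90.8 against 30.8, 15.2, 16.6 and 17.3 CPM in control (-2.25 ± 0.35) and at 131, 125 and 135 against 22.9, 31.6, 32.9 and 8.42 CPM in cKO cultures (-2.44 ± 0.35). These genes shared the same order, with control replicate 1 the highest and cKO replicate 4 the lowest day 3 library of their groups. The smallest fall among mitotic genes was in Kif23 in control (-1.45) and Bub1b in cKO cultures (-1.69).

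Among S phase genes, Cdc6 and Mcm5 fell most. Cdc6 went from 13.8, 12.9 and 13.4 CPM to 3.63, 2.28, 2.34 and 2.37 CPM in control (-2.34 ± 0.32, adjusted p = 4.9e-05) and from 24.9, 21.9 and 24.7 CPM to 7.03, 8.54, 8.40 and 2.31 CPM in cKO cultures (-1.85 ± 0.30). Mcm5 went from 97.4, 90.9 and 91.4 CPM to 31.2, 15.965, 17.4 and 20.4 CPM in control (-2.14 ± 0.35) and from 129, 117 and 126 CPM to 26.9, 35.2, 30.9 and 8.36 CPM in cKO cultures (-2.29 ± 0.34). The other helicase subunits fell less in control cultures, from -0.68 (Mcm7) to -0.94 (Mcm2), with Mcm4 (-0.26 ± 0.25) not called, although the 6 subunits work as 1 ring. E2f1 (-0.16 ± 0.11) and Ccne1 (-0.51 ± 0.25) were the other S phase genes not called in control cultures. In cKO cultures the exception was Rrm2, at 192, 165 and 221 CPM and then 98.4, 142, 127 and 221 CPM (-0.39 ± 0.27, adjusted p = 0.222), while in control cultures it went from 123, 118 and 118 CPM to 64.6, 32.4, 32.4 and 34.3 CPM (-1.55 ± 0.27). The Rrm2 level of cKO replicate 4 at day 3 matched the highest day 0 level. Without that library Rrm2 was called lower in cKO cultures as well (-0.65), and Ccne1 (-0.65 with it) was not called (-0.54).

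**Figure D4:**
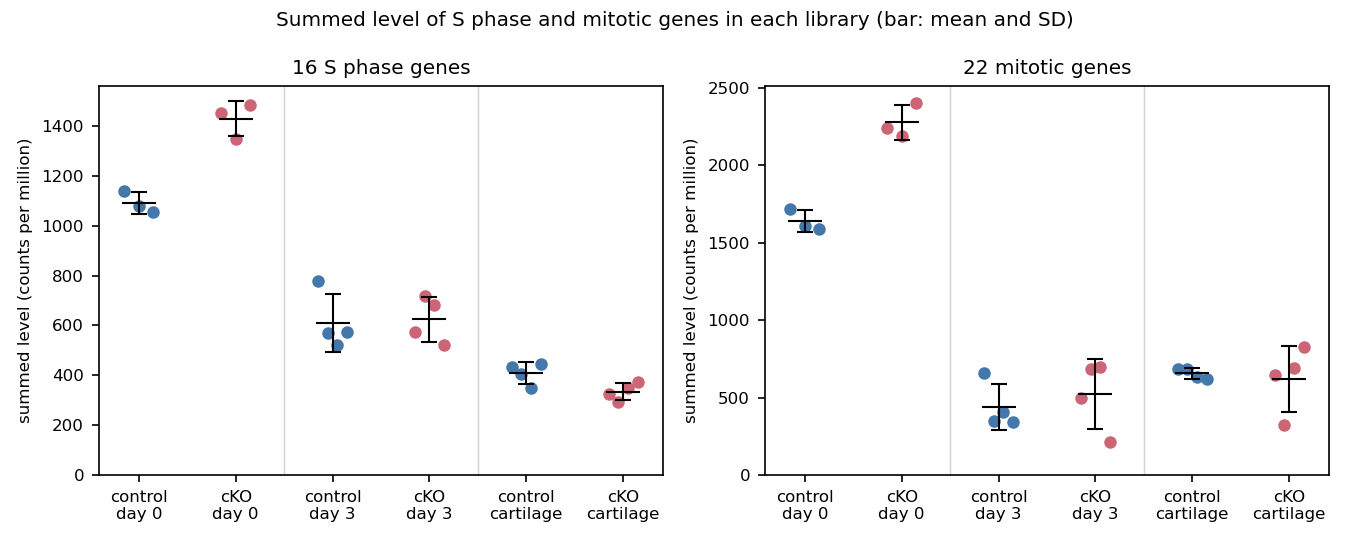
Summed level (y axis, CPM) of the 16 S phase genes and the 22 mitotic genes in each library of the 6 groups (x axis), with mean and SD bars; the tables were scaled separately. The mitotic sum is 1589 to 1720 CPM in control and 2188 to 2402 CPM in cKO cultures at day 0, and 345 to 657 and 209.9 to 697 CPM at day 3.

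Other genes of both pathways fell too. Over all tested genes, 28.8% were called lower in control and 29.8% in cKO cultures (28.1% and 32.4% higher). Of 35 other DNA replication genes 28 fell in control and 35 in cKO cultures, and none rose. Of 44 other mitosis genes 43 fell in each genotype, and 1 rose in control cultures. The largest falls in control cultures were in Uhrf1 (-2.07), Tk1 (-2.02) and Dbf4 (-1.99) of replication and in Espl1 (-2.46), Sgo1 (-2.45) and Cdc25c (-2.28) of mitosis. In cKO cultures they were in Mcm10 (-2.27), Uhrf1 (-2.08) and Tk1 (-1.97), and in Cdca8 (-2.48), Cdc25c (-2.39) and Kif18b (-2.36).

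Whether the change over the days differed between genotypes was tested directly as an interaction. It was called for 16.8% of 14909 genes (9.94% higher and 6.89% lower in cKO), for 1 of 16 S phase genes and for none of the 22 mitotic genes by edgeR (0 mitotic genes also at an unadjusted p under 0.05, and 0 with DESeq2). The S phase gene was E2f1, which fell more in cKO cultures (interaction -0.51 ± 0.16, SE, adjusted p = 0.0407). E2f1 was at 37.3, 35.6 and 37.2 CPM at day 0 and 33.9, 32.9, 32.6 and 31.8 CPM at day 3 in control cultures, and at 31.7, 36.1 and 33.8 CPM and then 17.9, 23.1, 18.1 and 26.1 CPM in cKO cultures. The call held in 2 of 14 fits with 1 library left out (without cKO day 3 replicate 2 or 4) and was lost in the other 12. Its size ranged from -0.62 to -0.44 over these fits.

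Rrm2 and Mcm4 had the largest interactions, in opposite directions, and both missed the threshold. That of Rrm2 was 1.16 ± 0.38 (adjusted p = 0.0556) and that of Mcm4 -1.04 ± 0.35 (adjusted p = 0.0591). Mcm4 was at 74.3, 70.6 and 69.1 CPM at day 0 and 70.5, 60.8, 48.2 and 58.03 CPM at day 3 in control cultures, and at 97.0, 86.4 and 93.0 CPM and then 38.9, 47.0, 45.8 and 17.1 CPM in cKO cultures. Without cKO day 3 replicate 4, 8 S phase genes had a called interaction: Mcm2 (-0.61), Mcm3 (-0.74), Mcm4 (-0.80), Mcm6 (-0.62), Mcm7 (-0.54) and E2f1 (-0.62) fell more in cKO cultures, and Cdc6 (0.77) and Rrm2 (0.90) fell less. Over all genes, 4051 interactions were called in that fit, against 2509 with replicate 4. The mitotic genes still had 0 calls there, with a median interaction of 0.060, against -0.21 with replicate 4. Among other DNA replication genes 1 of 35 had a called interaction, Slbp (-0.81), which binds the end of histone messages, and among 44 other mitosis genes 0 did by edgeR (2 at an unadjusted p under 0.05; DESeq2 was not counted for this list).

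**Figure D5:**
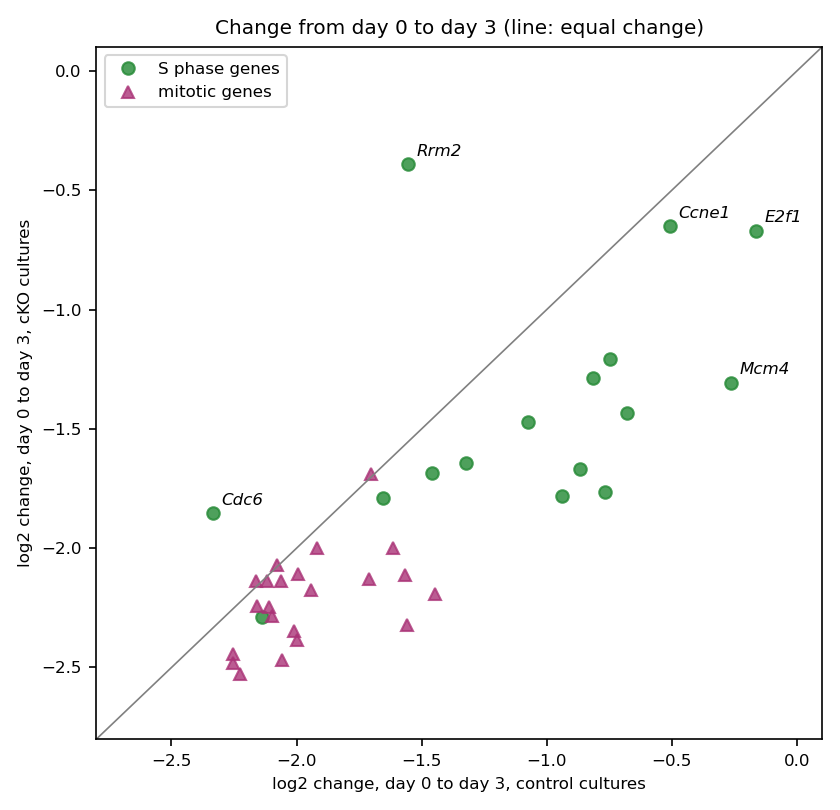
Log2 change from day 0 to day 3 in cKO cultures (y axis) against that in control cultures (x axis) for each gene; the line marks equal change. Mitotic genes (triangles) lie between -1.45 and -2.53 near the line; Rrm2 lies above it and Mcm4 and E2f1 below it.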

How the data were processed

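The members and gene lists were chosen with earlier results of these data known. For the cultures, the 2 tables deposited by the authors (1 per day) held estimated counts, rounded here to whole numbers. For cartilage they deposited whole-number counts, which are the main cartilage values; a deposited table of estimated counts of the same cartilage libraries was an alternative. The design had assumed that the main cartilage table held estimated counts. Per the submitters' processing notes the build was GRCm38 for all samples, and UMI-tools 1.1.1, Trim Galore 0.6.7, HISAT2 2.2.1, featureCounts 2.0.1 and DESeq2 1.34.0 were named for the cartilage samples; the aligner and counter of the cultures are not given in the sources used here. Per the labels' protocols, culture libraries were directional and cartilage libraries were 3′ libraries (BRB-seq) with molecular identifiers.

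Genes were kept with edgeR's filterByExpr (minimum count 10, minimum total 15), scaled by TMM and tested with the quasi-likelihood F test (edgeR 4.0.16, R 4.3.3). P-values were adjusted by Benjamini-Hochberg over all tested genes, with a threshold of 0.05. Cartilage fits had sex as a covariate, and the day contrasts used 1 fit of 4 groups and 14 libraries. CPM are counts scaled to 1000000 after TMM. DESeq2 1.42.0 and the other settings are described in the closing section. The fit was tested on simulated data. Culture identifiers were matched to symbols through a table of gene names, and gene positions are from GENCODE M21 (GRCm38). All members could be named; of other lists, at most the 3 called genes with the largest change per comparison. Per-library values are given for the called members with the largest change and for Mki67, Top2a, Ccnb1, Cdk1, Pcna and Mcm2; those of other uncalled members were chosen after their values were seen. Sequence overlap was searched with blastn in GENCODE exons. No per-sample column was left unused (0).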

Additional observations from a re-analysis of the deposited data

Results flagged for a closer look

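In groups of 4 libraries, 17 of 152 sets of values had 1 library far from the other 3 (gap over range above 0.829); chance gives about 1 in 20 sets, and genes are not independent. Control day 3 replicate 1 accounted for 13 of them, always as the highest: Mcm7 (70.8 CPM), Cdc6 (3.72), Cdt1 (14.3), Rrm2 (66.2), Top2a (103), Ccnb1 (28.4), Ccna2 (31.6), Bub1b (23.1), Cdc20 (30.8), Cenpe (25.989), Kif11 (24.9), Tpx2 (46.8) and Ube2c (15.3). In control cartilage Mcm4 in replicate 4 (37.6 CPM) and Cenpf in replicate 1 (81.8 CPM) stood apart, as did Kif20a in control replicate 4 (0.515 CPM) and cKO replicate 3 (1.78 CPM), each with the other 3 libraries at 0.

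An interaction of genotype and day was called for E2f1 (-0.51 on the log2 scale). That call was lost in most of the fits with 1 library left out. In 5 members every cKO library lay above every control library in a culture comparison and every cKO sample below every control sample in cartilage, a difference between settings that was not tested. They were Rrm2 (0.68 at day 0 and 1.87 at day 3, -0.87 in cartilage), Cdt1 (0.62 at day 0, -0.45 in cartilage), Mcm4 (0.37, -0.38), Mcm6 (0.18, -0.43) and Ube2c (0.47, -0.63), as log2 fold changes of cKO over control. They are 16.7% of the 30 members tested in both cultures and cartilage, and the same pattern was found in 1.65% of all 8365 genes tested in these tables. That share is not a separate result, since most members were already higher without overlap at day 0. The reverse pattern was found in 0 members and 2.16% of all genes. Groups apart in the same direction in culture and cartilage were found in 6.67% of members and 8.43% of all genes. At day 3 every cKO library lay below every control library for Mcm6 (-0.60, called) and Mcm4 (-0.66, not called), the same direction as in cartilage. In the estimated counts of the cartilage libraries, the Ube2c groups overlapped.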

How the results depend on the processing

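Each comparison except the female and male difference was refitted with DESeq2, with RLE size factors, with the replicate number as a block, with no expression filter, in cartilage without the sex covariate, and without each library in turn. Day 0 calls were 22 mitotic and 14 to 15 S phase genes in all of these, and fell to 1 and 4 (6260 over all genes) with all 14 culture libraries in one fit. Day 3 calls ranged from 0 to 6 mitotic and 2 to 9 S phase genes over fits without 1 library, and from 5694 to 7808 over all genes. Leaving out cKO replicate 4 gave the highest of each. In cartilage, DESeq2 called 357 genes. Without a filter 1044 genes, 2 S phase and 1 mitotic gene were called. The estimated counts gave 733 genes over all, with 2 S phase genes and 1 mitotic gene. Fits without 1 library gave 362 to 630 genes over all and 0 to 1 mitotic gene. The interaction was called for 4 S phase genes with DESeq2, 3 with the replicate block and 0 without a filter, and for 0 to 8 S phase genes (1591 to 4051 over all genes) without 1 library. The female and male difference, refitted in 2 ways, was called for 33 genes without a filter and 2 in the estimated counts, none of them members. The day changes kept 22 mitotic genes in every fit. The causes were not tested. Over single members, 3271 refits gave the same verdict, 71 lost a call and 42 gained one; none that was called changed sign, and 108 changed sign while uncalled. Same-numbered replicates correlated at -0.23 to 0.26, which cannot decide whether the numbers pair the samples. The main fits did not pair them. Beside the interaction, the replicate block changed the S phase count to 4 at day 3 and to 12 and 14 for the day changes. In cartilage, 8 members fell under the expression filter (minimum count 10) and were not tested.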

Other observations

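Genes that control the cell cycle programme were also read, as 16 E2F, Rb and DREAM regulators outside the 38. At day 0, 10 rose and 2 fell in cKO cultures (75.0% called, against 64.5% of all tested genes), with E2f2 (log2 fold change 1.00167), Mybl2 (0.79) and E2f7 (0.75) the largest. At day 3, 3 rose and 2 fell (31.2% called, against 48.1% of all tested genes). Rb1, the retinoblastoma protein that restrains E2F, was higher (1.40 ± 0.14, SE, edgeR adjusted p = 0.00012), as was the repressor E2f4 (0.52). Lin52, a subunit of MuvB, was lower (-0.69). From day 0 to day 3, Mybl2 fell by 2.56 in control and 2.68 in cKO cultures, with falls in E2f7 and E2f8 as well. In control cultures 4 of the list rose (by at most 1.44) and 9 fell (81.2% called, against 56.9% of all tested genes). In cKO cultures 3 rose (by at most 1.35) and 8 fell (68.8% called, against 62.2% of all tested genes). The interaction of genotype and day was called for 4 of 16 regulators (25.0%, against 16.8% of all tested genes), higher for Rb1 (0.79) and E2f4 (0.53) and lower for Rbl1 (-0.53) and Lin54 (-0.40, named after its value was seen). In cartilage 0 of 9 tested regulators were called by edgeR (1 at an unadjusted p under 0.05; DESeq2 was not counted for this list).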
